A study of Danio rerio with 24 samples.

Results

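The loci described here are transcribed stretches of the zebrafish genome that the deposited gene count table listed without an Ensembl gene identifier. Each carried a prefix and a serial number instead, and is called here "locus" followed by that number. A locus was kept if it had at least 10 counts in 4 or more of the 24 libraries. This rule left 5259 of the 5759 rows with that prefix, out of 37660 rows in the whole table. The same rule left 20963 of 25431 rows of the biotype protein_coding, which served as the comparison. The rule used only how many libraries held counts, not how those libraries differed.

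Each library was made from a pool of about 50 whole embryos labelled 3 days post fertilisation, and there were 4 libraries in each of 6 groups. Wild-type (WT) embryos were given either the solvent DMSO, labelled 0 h, or ML233, a small molecule, for 3 h or 24 h at 0.5 µM. Embryos labelled knockout (KO) formed the same 3 groups. The labels gave the KO line in conflicting ways: the titles named an apelin receptor knockout, the growth protocol named mutants of both apelin receptor genes made in the AB strain, and the design text named an apelin knockout. Per that protocol the mutations came from Cas9 and guide RNAs, the controls shared grandparents with the mutants, and the apelin allele was an insertion that brought in an early stop codon. Each pool mixes all tissues, so more cells of a type and more RNA per cell cannot be told apart in any value below.

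A transcript assembler joins aligned reads into transcript models and gives a new identifier to a model that matches no annotated gene. Such models can be genes that the annotation lacks, extensions of known genes, pieces of transposable elements, or further copies of known genes. Alternate contigs are second versions of a chromosome stretch, kept beside the chromosome in the reference assembly because the sequence differs between fish. A read from such a stretch can match the chromosome, the alternate contig, or both. Retrotransposons are elements that copy themselves through RNA, and their Gag-Pol polyprotein holds the structural and reverse transcriptase parts. No sequence is printed for the loci, because the sources used here gave coordinates and descriptions but no genome of the build GRCz11 that the submitters' processing notes name.

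Total counts lay between 29 M and 43.4 M per library, with a median of 35.3 M. The loci took 7.44% to 7.84% of the counts, 5.83% to 6.18% on alternate contigs and 1.37% to 1.52% on chromosomes. Between 4707 and 5096 loci had 10 or more counts in a library, and 6 to 76 had none. Both of these extremes, 4707 and 76, were in KO 24 h replicate 2, which also had the lowest TMM scaling factor (0.833). All 3 apelin genes were lower in every KO library than in every WT library and absent from none. In counts per M scaled by TMM (CPM), aplnra had 23.3 to 25.8 in WT and 13.3 to 21.3 in KO libraries, aplnrb 21.4 to 27.0 and 9.70 to 17.7, and apln 95.5 to 111.6 and 82.9 to 95.2.

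Most of the loci lay outside the chromosomes proper. Of the 5259 loci, 3445 (65.5%) were on 810 alternate contigs, 1539 (29.3%) on the 25 chromosomes and 275 (5.23%) on 218 unplaced scaffolds. No annotated row of the table was placed on an alternate contig, against 436 annotated rows on unplaced scaffolds. A contig held at most 27 loci, and 161 contigs held 1. On the chromosomes only 1 of 1539 loci overlapped an annotated row on the same strand, and 0 overlapped a row on the opposite strand only. New identifiers go to models that match no annotated gene, so the naming itself may fix this, which was not tested. The loci were split evenly over the strands, with 2587 on the plus and 2672 on the minus strand.

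"Unannotated" held for the identifier more than for the content. The table described 3766 loci (71.6%) by a similar protein of another entry, and 2296 by a protein domain. On alternate contigs 3100 loci (90.0%) had a protein description, on unplaced scaffolds 180 (65.5%) and on chromosomes 486 (31.6%). The protein named was itself a zebrafish protein for 669 loci. The loci with no description at all, 1421, were mostly on chromosomes, which held 1031 of them.

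Loci on the different kinds of sequence also differed in build. The median length, taken as the summed exon length in the table, was 2560 bases over all loci, with quartiles of 1360.5 and 4385, beside 2381 bases for protein_coding rows. It was 2941 bases on alternate contigs, 2042 on chromosomes and 952 on unplaced scaffolds. A locus whose length equals its span is a single block without introns. That was so for 302 chromosome loci (19.6%), against 66 on alternate contigs (1.92%), 24 on scaffolds (8.73%) and 526 protein_coding rows (2.51%). The median span was 16362 bases on alternate contigs, near the 16521 of protein_coding rows, and 4663 on chromosomes. The longest locus was 1803 on CHR_ALT_CTG10_1_20 (21736265 to 21820112), with 29598 bases and a description as a protocadherin, a cell adhesion protein of neurons. Next came locus 3891 on CHR_ALT_CTG24_1_22, with 21840 bases and a description as myosin-6, a heart muscle motor protein.

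The loci were less abundant than protein_coding rows. Their median mean CPM over the 24 libraries was 4.31, beside 9.37. Per kb of length the medians were 1.54 and 3.67 CPM. The 3 places differed little per kb, with 1.45 on alternate contigs, 1.75 on chromosomes and 1.44 on scaffolds. At the count rule's edge, the 38 loci with 10 counts in 3 libraries had a median total of 126 counts over all libraries, and the 46 with 10 counts in 4 libraries had 130.5. At the other end, 4272 loci had 10 or more counts in all 24 libraries.

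**Figure D1:**
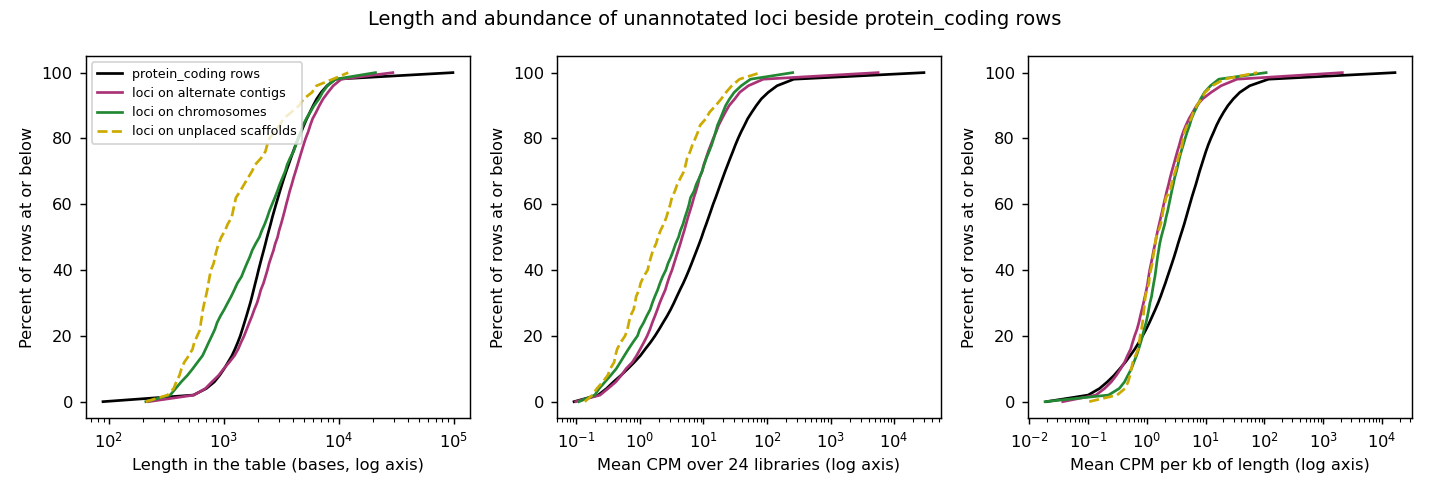
Percent of rows at or below a given length in bases (left), mean CPM over 24 libraries (middle) and mean CPM per kb of length (right), on log axes, for protein_coding rows and for loci on alternate contigs, chromosomes and unplaced scaffolds. Per kb, the curves of the 3 kinds of loci lie close together at the median (1.45, 1.75 and 1.44), to the left of the protein_coding curve (3.67). The curves cross lower down: at percentile 10 the loci have 0.358, 0.545 and 0.544 and protein_coding rows 0.346.

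The most abundant loci all lay on alternate contigs. Locus 4848 (CHR_ALT_CTG6_1_39), described as the intermediate filament protein ON3, a keratin-type protein known from goldfish, reached 5601 CPM and 2117 CPM per kb. Locus 4312 (CHR_ALT_CTG3_2_3), described as mylpfa, a myosin light chain of fast muscle, had 1846 CPM per kb. Locus 2159 (CHR_ALT_CTG12_1_6), described as pvalb2, a calcium-binding parvalbumin of muscle, had 1638. Locus 3842 was described as rpl10, a ribosomal protein, with 1128, and locus 4526 as apoa1, the main protein of high-density lipoprotein, with 1098 CPM per kb. Locus 3153, described as the cytoplasmic actin actba, was in the top 5 by CPM (1582) with 895 CPM per kb. Its lowest and highest levels were 1020 and 1610 CPM in WT and 1090 and 3147 CPM in KO, so the groups overlapped (log2 fold change 0.58 ± 0.19 SE, edgeR adjusted p = 0.045, averaged over treatments).

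Loci near an annotated gene moved with it more than distant ones, although weakly. For the 76 chromosome loci within 1000 bases of a protein_coding gene on the same strand, the median correlation of the deviations from group means over the 24 libraries was 0.223. For 1402 protein_coding rows, each set beside its nearest such neighbour at that distance, it was 0.114. Mutual neighbours enter there once for each row. It was 0.0777 for 512 loci at over 1000 and up to 10000 bases and 0.00436 for 693 loci from there to 100000 bases, but 0.0724 for 246 loci farther away, so it did not fall steadily with distance. For protein_coding rows in these ranges it was 0.0794, 0.0452 and 0.0137. The loci were thus above protein_coding rows in the nearest and farthest ranges only. Of the 76 nearest loci, 50 lay downstream of the gene. These values share libraries and are a description only.

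Libraries of the same group differed more at the loci than at protein_coding genes. In all 36 pairs of libraries within a group the SD of log2 CPM differences was larger over the loci, by a factor of 1.03 to 1.38 with a median of 1.18. The median within-group SD was 0.388 log2 units for a locus and 0.306 for a protein_coding row. At like abundance the gap was smaller. Below 1 CPM the medians were 0.689 and 0.652, from 2 to 4 CPM 0.404 and 0.394, and at 16 CPM and above 0.228 and 0.202.

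In each group the 4 libraries formed 2 pairs. WT replicates 1 and 2 differed from each other by an SD of 0.503 to 0.509 over the loci in the 3 treatments, and replicates 3 and 4 by 0.548 to 0.598. Libraries from different WT pairs differed by 0.679 to 0.838. In KO DMSO the close pairs were replicates 1 and 3 (0.534) and 2 and 4 (0.548), with 0.781 to 0.851 between them. In KO 3 h they were replicates 1 and 2 (0.482) and 3 and 4 (0.543), with 0.732 to 0.814 between. In KO 24 h they were replicates 1 and 3 (0.492) and 2 and 4 (0.744), with 0.919 to 1.27 between. Chromosome loci and loci on alternate contigs showed the same pairs, with highest SDs of 1.38 and 1.20. No label names what the libraries of a pair share.

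The loci with the largest within-group SD were split by these pairs. Locus 5080 (CHR_ALT_CTG7_1_28), described as crygna, a gamma-crystallin of the lens, had 3.74 to 9.85 CPM in WT. In KO replicates 1 to 4 it had 11.01, 1.17, 14.1 and 0.374 CPM in DMSO, 10.3, 9.81, 1.16 and 1.47 at 3 h, and 12.9, 0.915, 11.3 and 1.16 at 24 h. Thus 6 KO libraries were at 9.81 CPM or more, near or above the highest WT library, and the other 6 were below all of WT, and the KO mean did not differ by the test (log2 fold change 0.10 ± 0.50 SE, edgeR adjusted p = 0.928). Locus 1546 (chr6:17680768-17692289, minus strand), described as OARD1, an enzyme that removes ADP-ribose, had 0.756 to 2.60 CPM in WT. It had 12.6 to 19.03 CPM in KO DMSO replicates 2 and 4, KO 3 h replicates 3 and 4 and KO 24 h replicates 2 and 4. In the other 6 KO libraries it had 1.33 to 1.94 CPM, inside the WT range. Locus 2361, described as the transcriptional corepressor CTBP1, ran the other way, with 0.627 to 2.10 CPM in the KO libraries where locus 1546 was high and 8.01 to 15.3 in the other 6. Locus 2209, described as the transcription factor MAFF, and locus 3883, described as the zinc finger protein ZFAND1, did not follow that division, with lowest values of 0.214 CPM in KO 24 h replicate 3 and 0.0814 CPM in WT DMSO replicate 2.

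The same 6 KO libraries stood apart from the other KO libraries in the principal components. On the first component of the loci, which held 34.5% of their variance, they lay at 17.1 to 60.0 and the other 6 KO libraries at -22.4 to -15.4. WT replicates 3 and 4 reached 17.7 on it and so touched that range, but lay at 20.9 to 28.8 on the second component, where all 12 KO libraries were below 0. They were also the 6 libraries with the lowest aplnrb, 9.70 to 12.4 CPM, against 16.1 to 17.7 in the other KO libraries. What part the makeup of these libraries has in the differences below was not tested.

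ML233 changed no locus past the threshold at either time or in either genotype. Against DMSO, edgeR's quasi-likelihood test called 0 of 5231 tested loci at an adjusted p under 0.05 in WT at 3 h, WT at 24 h, KO at 3 h and KO at 24 h, where 0% of all 27010 tested rows were called. DESeq2 also called 0 in each. At an unadjusted p under 0.05 there were 112, 73, 126 and 188 loci (2.14%, 1.40%, 2.41% and 3.59%), beside 1.55%, 0.785%, 1.29% and 2.62% of protein_coding rows. The interactions, which ask whether KO and WT responded differently, gave 0 loci at 3 h and 0 at 24 h (0% of all rows), with 81 and 93 loci at an unadjusted p under 0.05. DMSO libraries carried 0 h, so ML233 and elapsed time cannot be told apart.

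The loci with the smallest p in these contrasts were mostly near the lower end of the counts. Locus 3253 (CHR_ALT_CTG1_1_33), described as mzt1, a protein of the spindle pole, had 0.979, 0.814, 2.57 and 3.16 CPM in WT DMSO and 0.313, 0.357, 0.588 and 0.534 at 24 h. The 4 treated libraries were below the 4 controls, but 2 of the controls lay near the treated values (log2 fold change -2.06 ± 0.44 SE, edgeR adjusted p = 1). Locus 1818 (CHR_ALT_CTG10_1_23), described as the lipid transfer protein PITPNA, had 4.399, 1.73, 2.87 and 0.390 CPM in KO 3 h and 0.255, 0.240, 0.533 and 0.345 in KO DMSO (2.75 ± 0.66 SE, adjusted p = 1 by edgeR). The last of its 3 h libraries was inside the DMSO range. Locus 3608, described as elongation factor 2, had 6.34, 7.05, 8.58 and 8.35 CPM in WT DMSO and 11.4, 9.58, 11.4 and 12.8 at 3 h (0.57 ± 0.14 SE, edgeR adjusted p = 1). Here the 2 groups did not overlap. Locus 5737, on an unplaced scaffold and described as the ciliary protein TTC21B, had the smallest p in KO at 24 h (1.53 ± 0.34 SE, edgeR adjusted p = 0.997).

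KO and WT embryos differed at a few loci within each treatment. In DMSO 7 of 5231 loci were called, 6 higher and 1 lower in KO, which is 0.134% of the loci beside 0.148% of all rows tested (0.104% higher, 0.0444% lower) and 0.153% of protein_coding rows. At 3 h 5 loci were called (0.0956%, beside 0.148% of all rows), 4 of them higher. At 24 h 28 were called (0.535%, beside 0.459% of all rows), 23 of them higher. None of these shares stood far from the background. All 3 counts became 0 when only the 2 groups compared were fitted, and each moved with single libraries: the DMSO count was 0 without any 1 of the 4 WT DMSO libraries or without KO DMSO replicate 2 or 4, and the 24 h count was 0 without WT 24 h replicate 4 and 150 without KO 24 h replicate 3. The 3 h count was 0 without WT 3 h replicate 4 and 20 without KO 3 h replicate 2.

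Averaged over the 3 treatments, 779 loci were called, 453 higher and 326 lower in KO. That is 14.9% of the loci, beside 15.7% of all rows tested (9.39% higher, 6.29% lower) and 16.2% of protein_coding rows. The share was 14.9% on alternate contigs, 15.7% on chromosomes and 9.56% on unplaced scaffolds. Of the 5231 tested loci, 136 were called and differed by 2-fold or more, near the background. That was so for 717 of all 27010 rows and 550 of 20884 protein_coding rows. The share rose with abundance in loci and protein_coding rows alike, from 8.62% and 10.7% below 1 CPM to 22.1% and 20.2% at 16 CPM and above. The contrast counts 12 libraries a genotype, although libraries of the same number deviated together across treatments in WT, and in KO between DMSO and 24 h. With counts summed over treatments by genotype and number, leaving 4 against 4, 44 loci were called, 39 of them higher. In KO the numbers 2 and 3 correlated by -0.489 and -0.47 between DMSO and 3 h. Those KO sums joined libraries that deviated in opposite ways, and summing also left fewer libraries. What lowered the count to 44 was not tested. The larger number of higher than lower calls shrank without KO 24 h replicates 2 and 4, where 254 of 496 calls were higher. It was not kept with 2 surrogate variables, where 154 of 313 calls were higher. Of the loci called higher 29, and of those called lower 4, had 10 counts in under 4 libraries of the other genotype, so they met the count rule only through the genotype where they were high.

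Only a few loci separated the genotypes completely. In 14 loci all 12 KO libraries were above all 12 WT libraries and in 10 all were below, which is 0.456% of the loci beside 0.6% of all rows and 0.644% of protein_coding rows. Within DMSO, 180 loci had the 4 KO libraries above the 4 WT libraries and 150 below, 6.27% beside 7.08% of all rows and 7.40% of protein_coding rows.

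Many of the called differences were carried by 6 of the 12 KO libraries. In 200 of the 453 loci called higher (44.2%) the 6 highest values were in KO DMSO 2 and 4, KO 3 h 3 and 4 and KO 24 h 2 and 4. The next most frequent set of 6 libraries held the highest values in 6 loci. The same was so for 1115 of 2027 protein_coding rows called higher (55.0%), and for 320 of all 5231 tested loci (6.12%). Among the 326 loci called lower, these 6 libraries held the 6 lowest values in 46 (14.1%). This set was noticed in the values, so these counts are a description.

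Loci with retrotransposon-type words in their description were the class with the largest called share. The class, taken from words in the table's descriptions, held 31 loci, 23 on chromosomes, 6 on alternate contigs and 2 on scaffolds. Their median length was 4667 bases, 17 were single blocks, and their median level was 13.5 CPM. In KO against WT averaged over treatments 12 were called higher and 4 lower, 51.6% of the class beside 14.9% of the loci and 15.7% of all rows. The median log2 fold change was 0.58, beside -0.02 over all loci. The words that define the class also matched locus 1768, described as the complex III assembly factor LYRM7 with an RNase H domain. They matched locus 4672 too, described as the integrase-like protein GIN1. Neither was called (edgeR adjusted p = 0.86 and 0.81). No test of the class as a set was made.

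The summed level of the 31 loci showed where that difference sat. It was 570.1, 598.5, 654.8 and 593.8 CPM in WT DMSO, 612.6, 649.1, 667.6 and 623.0 in WT 3 h, and 543.1, 597.3, 588.5 and 652.9 in WT 24 h. In KO replicates 1 to 4 it was 614.9, 1025, 606.6 and 1186 CPM in DMSO, 584.3, 634.7, 1097 and 1018 at 3 h, and 636.1, 1036, 571.7 and 1213 at 24 h. In 6 KO libraries the sum was inside the WT range, and in the other 6 it was above 1000 CPM, in each treatment. These were again DMSO 2 and 4, 3 h 3 and 4 and 24 h 2 and 4. A large part of the rise came from locus 1077, which had a WT median of 134.9 CPM and 309.5 and 417.3 in KO DMSO 2 and 4. These 6 libraries held the 6 highest values in 15 of the 31 loci (48.4%). None of the 31 loci separated the 12 KO from the 12 WT libraries.

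**Figure D2:**
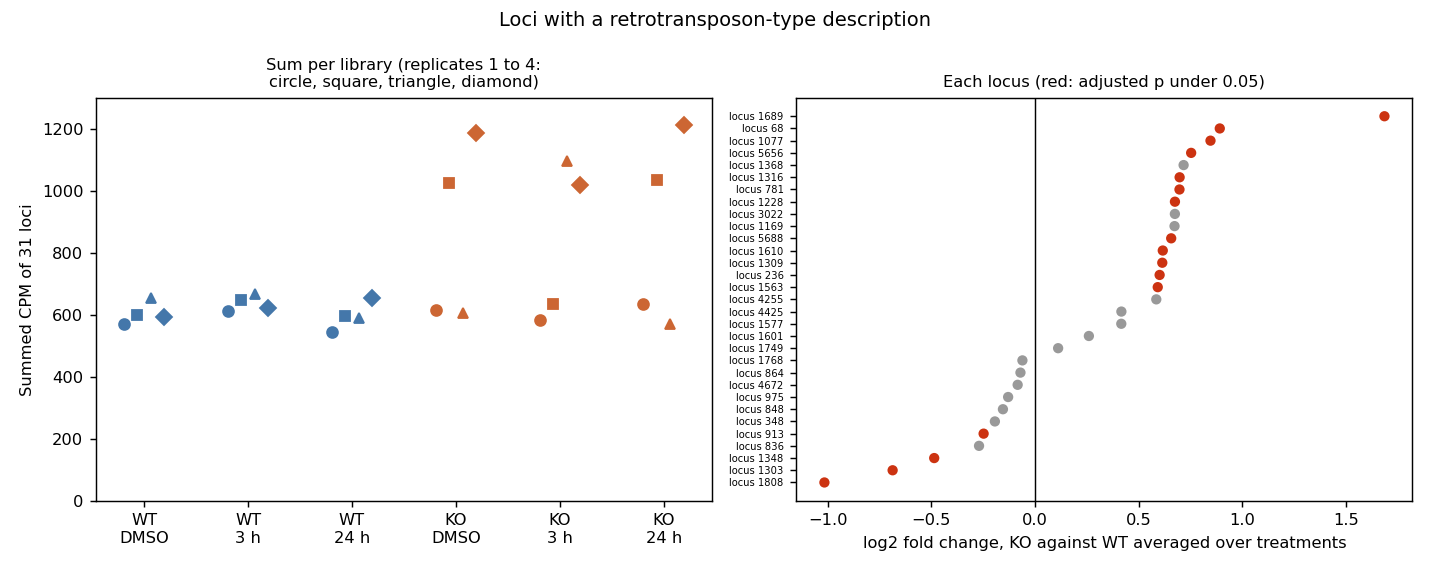
Left: summed CPM of the 31 retrotransposon-type loci in each library, by group, with replicates 1 to 4 as circle, square, triangle and diamond (blue WT, orange KO). Right: log2 fold change of each locus in KO against WT averaged over treatments, red where the edgeR adjusted p was under 0.05 (12 higher, 4 lower). The 12 WT libraries sit between 543.1 and 667.6 CPM, and 6 of the 12 KO libraries sit between 1018 and 1213.

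Locus 1077 was the most abundant of the class. It lies at chr24:12596618-12601382 on the plus strand, a single block of 4765 bases outside annotated genes, 28267 bases from pdcd6, and is described as a retroviral Gag-Pol polyprotein. It had 116.5 to 154.3 CPM in WT, with a median of 134.9. In KO it had 129.6, 309.5, 138.5 and 417.3 CPM in DMSO, 128.2, 136.8, 327.9 and 336.6 at 3 h, and 151.4, 324.9, 114.2 and 399.7 at 24 h. The same 6 libraries were high and the other 6 were not above the WT range (log2 fold change 0.85 ± 0.22 SE, edgeR adjusted p = 0.0121). Locus 1689 (chr8:39359866-39364748, minus strand) had the largest fold change, 1.69 (edgeR adjusted p = 0.00105), with 1.02 to 2.22 CPM in WT and 1.68 to 9.88 in KO. Of the 12 called higher, 10 had their 6 highest values in that set of libraries.

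A Gag-Pol description was given to 19 of the 31 loci, of which 11 were called higher and 2 lower. In 11 the protein named came from 1 of 3 mammalian retroviruses, and of these 9 were called higher and 0 lower, a grouping made after the values were seen. The loci called lower were 1808 (-1.02, edgeR adjusted p = 0.00683) and 1303 (-0.69, 0.0085), described as Gag-Pol, 1348 (-0.49, 0.0326), described as a Pol polyprotein, and 913 (-0.25, 0.0273), described by an RNase H domain. Copies of a transposable element can be nearly identical, so counts may be shared between the loci and with copies elsewhere, and a single locus is uncertain. The class count was 7 without KO 24 h replicates 2 and 4, of which 4 were higher, and 1, which was higher, with counts summed over treatments. With 2 surrogate variables it was 2, of which 0 were higher, so the direction of the class did not hold there.

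Other description classes lay nearer the background of 15.7%. DNA transposon-type loci, 43 in all, had 3 called higher and 2 lower (11.6%), and 119 zinc finger loci had 6 and 4 (8.4%). Of 42 loci with immune receptor-type words 8 were higher and 4 lower (28.6%), and of 104 protease and inhibitor loci 20 were higher and 4 lower (23.1%). Transmembrane receptors had 4 and 3 of 28 called (25%), NACHT and leucine-rich repeat loci, a class that includes innate immune sensors, 4 and 6 of 55 (18.2%), GTP-binding loci 4 and 4 of 45 (17.8%), and kinases 22 and 10 of 207 (15.5%). Of 25 histone loci 0 were higher and 1 lower (4%). Loci with another description had 13.6% called, and those with none 16.2%, with 113 higher and 115 lower. Locus 881 (chr21:140494-156582), the most abundant immune receptor-type locus and described as the macrophage mannose receptor MRC1, had 55.4 to 105 CPM in WT and 38.6 to 86.4 in KO (log2 fold change -0.53 ± 0.12 SE, edgeR adjusted p = 0.00636).

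The loci named next as higher in KO were called in the averaged contrast and had no overlap between the 12 and 12 libraries. Locus 2672 lies on CHR_ALT_CTG16_1_19 (37954655 to 37969178, minus strand) and has no description. It had 1.83 to 3.67 CPM in WT, and in KO 6.16, 37.3, 7.64 and 39.8 CPM in DMSO, 7.34, 8.42, 32.1 and 30.3 at 3 h, and 11.2, 42.6, 5.88 and 42.4 at 24 h. The 6 libraries named above were far above the rest (log2 fold change 2.93 ± 0.38 SE, edgeR adjusted p = 5.11e-05). That every KO library was above every WT library, here and in the other loci so named, was fixed by the choice and is a description.

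Locus 4836 (CHR_ALT_CTG6_1_38, 39117898 to 39125284) was described as GPR84, a fatty acid receptor known from mouse and human myeloid cells. It had 0.855 to 2.07 CPM in WT with a median of 1.39, and 3.74 to 22.8 in KO with a median of 8.33. The difference was 2.92 ± 0.33 SE on the log2 scale (edgeR adjusted p = 1.78e-05), and it was also called within DMSO (3.08 ± 0.58 SE, edgeR adjusted p = 0.0335). Locus 3526 (CHR_ALT_CTG22_1_11), described as vitellogenin, the egg yolk protein, had 0 to 0.217 CPM in WT and 0.236 to 6.23 in KO. It had at most 8 counts in any WT library, 11 to 187 in KO libraries, and met the count rule only through KO. It was also named for a call without overlap, so its difference was fixed by the choice and its values are a description.

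Locus 2758 (CHR_ALT_CTG17_1_10), described as the monocarboxylate transporter MOT9, had 0.908 to 1.51 CPM in WT and 1.63 to 11.6 in KO (2.02 ± 0.34 SE, edgeR adjusted p = 0.000506). Locus 3793 (CHR_ALT_CTG23_1_34), described as sgk1, a kinase induced by glucocorticoids in mammals, had 11.7 to 17.7 CPM in WT and 18.6 to 65.2 in KO (1.29 ± 0.22 SE, edgeR adjusted p = 0.000577). Locus 3261, described as the transcription factor Klf12, rose by less (0.92 ± 0.14 SE, edgeR adjusted p = 0.000173). In 7 of the 8 loci named as higher, the same 6 KO libraries held the 6 highest values. The exception was locus 511.

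**Figure D3:**
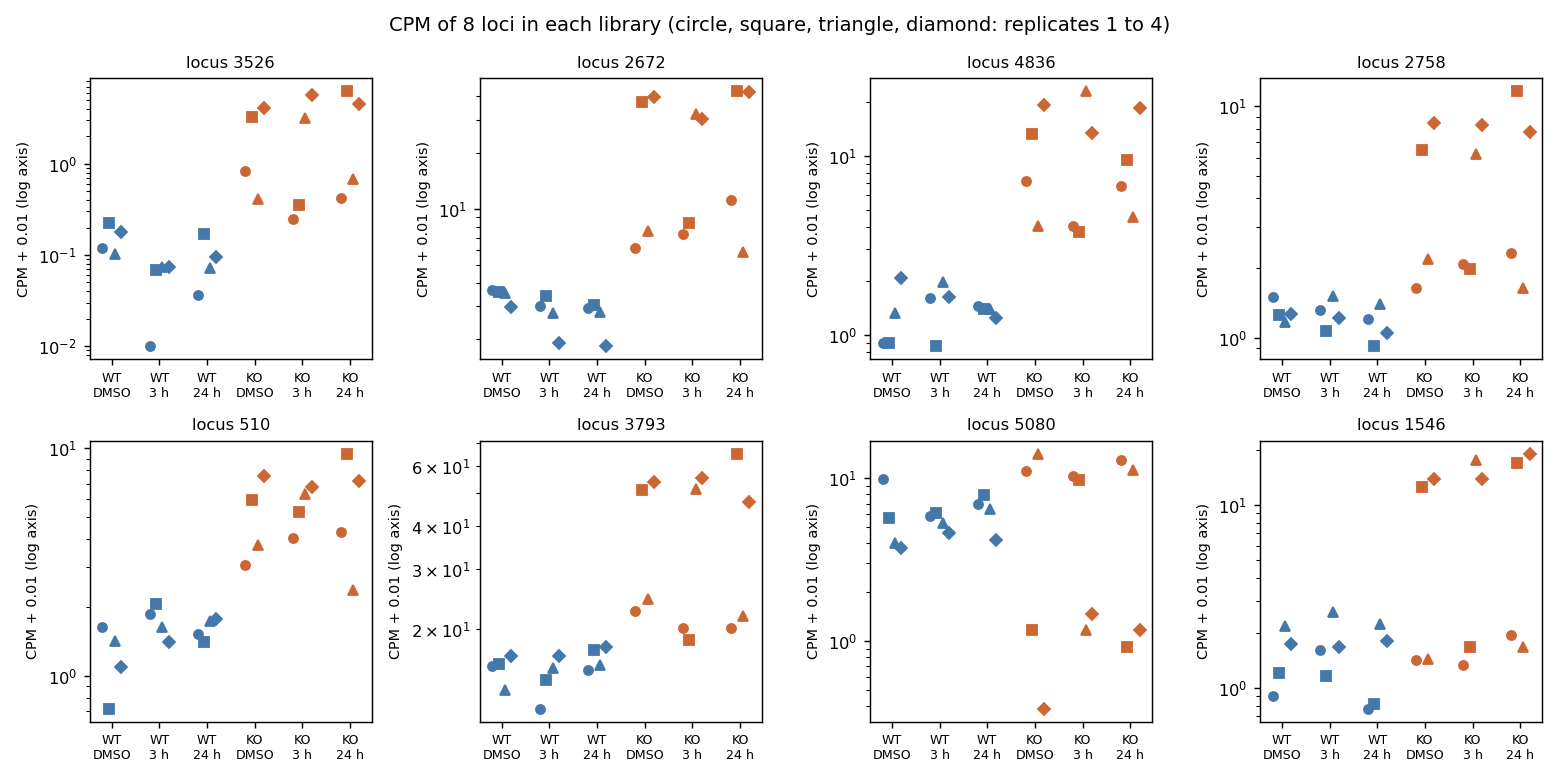
CPM of 8 loci in each library on log axes, with 0.01 added, by group (blue WT, orange KO) and replicate (circle, square, triangle and diamond for 1 to 4). For locus 2672 the WT libraries reach 3.67 CPM and the KO libraries start at 5.88, while for locus 5080 the KO libraries lie on both sides of the WT libraries.

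Loci named as lower in KO differed by less. They were chosen by the same rule, so their lack of overlap between KO and WT libraries was also fixed by the choice. Locus 3184 (CHR_ALT_CTG1_1_18), described as the glutamate receptor subunit GRIA2, had 6.25 to 10.9 CPM in WT and 3.41 to 5.96 in KO (-0.68 ± 0.11 SE, edgeR adjusted p = 0.000441). Locus 2735 (CHR_ALT_CTG16_1_8), described as recoverin, a calcium sensor of photoreceptors, had 27.5 to 32.1 CPM in WT. In KO it had 14.2 to 18.8 CPM in the 6 libraries named above and 22.1 to 26.4 in the other 6 (-0.57 ± 0.11 SE, edgeR adjusted p = 0.00166). Locus 5056, described as annexin A2, a membrane-binding protein, fell by 0.50 ± 0.08 SE on the log2 scale, and locus 1792, described as a subunit of the proton pump V-ATPase, by 0.48 ± 0.08 SE (edgeR adjusted p = 0.000234 and 0.000346). Locus 3321, described as testican-3, a secreted proteoglycan, fell by 0.39 ± 0.06 SE (edgeR adjusted p = 0.00019).

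The remaining loci lower in KO lay on chromosomes and had no description. Locus 20 (chr1:52098233-52107751, plus strand) is a single block of 9519 bases, 3522 bases from rad23aa on the opposite strand (-0.42 ± 0.07 SE, edgeR adjusted p = 0.000486). Locus 923 (chr21:42378300-42386425, plus strand) is a single block of 8126 bases, 4072 bases from a GABRB2 gene on the same strand (-0.36 ± 0.06 SE, edgeR adjusted p = 0.000944). Locus 1350 (chr4:29958610-29967218, minus strand) begins 37 bases from znf1128 on the opposite strand. It had 6.13 to 7.43 CPM in WT and 4.49 to 5.57 in KO (-0.42 ± 0.06 SE, edgeR adjusted p = 8.51e-05). With counts summed over treatments loci 20, 923 and 1350 lost the call (edgeR adjusted p = 0.0928, 0.0812 and 0.0724), as did 3184, 2735, 1792 and 3321 among those lower in KO and 2758 and 3793 among those higher (0.0519 to 0.0759).

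Within DMSO the named loci were 469, 241, 4836, 510 and 3897 as higher and 3334 as lower. Locus 241 (chr12:46069917-46072731), with no description, had 0.109, 0.0271, 0.0939 and 0.102 CPM in WT and 0.893, 0.856, 1.07 and 1.12 in KO. It had at most 8 counts in any WT library and met the count rule only through KO. It was also named for a call without overlap, so its difference was fixed by the choice and no fold change or test is given. Locus 3897 (CHR_ALT_CTG24_1_4), described as dcaf11, an adaptor of ubiquitin ligases, had 6.01, 7.43, 7.32 and 6.49 CPM in WT and 10.6, 9.45, 10.1 and 10.7 in KO (0.58 ± 0.12 SE, edgeR adjusted p = 0.0498). Locus 3334 (CHR_ALT_CTG1_2_5), described as a neuronal acetylcholine receptor subunit, had 5.68, 3.99, 4.70 and 6.04 CPM in WT and 2.74, 2.74, 2.39 and 2.15 in KO (-1.03 ± 0.18 SE, edgeR adjusted p = 0.0301). The call of locus 3897 was lost, at a nearly equal fold change, with RLE size factors (edgeR adjusted p = 0.0528), with protein_coding scaling (0.0548), with no low-count filter (0.0726) and with the replicate block (0.0615). The loci in this paragraph were named only if their 4 KO libraries lay apart from the 4 WT libraries. That separation was therefore fixed by the choice and is a description.

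On chromosome 16, 3 loci called higher in KO lay next to each other. Loci 510 and 511 were named for a call without overlap, so their separation was fixed by the choice and is a description. Locus 469 (chr16:46790263-46794649, plus strand), with no description, had 0.306 to 1.68 CPM in WT. In KO it had 5.96, 16, 6.02 and 28.6 CPM in DMSO, 8.43, 4.76, 16.2 and 25.6 at 3 h, and 6.38, 27.6, 1.31 and 20.2 at 24 h. Only KO 24 h replicate 3, at 1.31, was inside the WT range (log2 fold change 3.89 ± 0.42 SE, edgeR adjusted p = 1.22e-05). Locus 510 (chr16:46796372-46798482, minus strand), also with no description, had 0.705 to 2.06 CPM in WT and 2.38 to 9.45 in KO (1.87 ± 0.20 SE, edgeR adjusted p = 1.22e-05). Locus 511 (chr16:46817465-46831376, minus strand), described by the transposase Tcb1 of DNA transposons and a kinase domain, had 2.66 to 5.22 and 5.86 to 11.3 CPM (0.89 ± 0.13 SE, edgeR adjusted p = 0.000206). The annotated row between them, CABZ01027551.1, had 0.0792 CPM over the libraries. Locus 468, upstream at chr16:46751446-46757655, had 45.9 to 55.8 CPM in WT and 40.4 to 53.7 in KO and was not called (-0.04, edgeR adjusted p = 0.626).

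By chromosome, counting alternate contigs with their chromosome, the share of loci called in the averaged contrast ran from 7.39% on chromosome 17 (15 of 203) to 28.7% on chromosome 19 (29 of 101). Chromosomes 24, 21 and 12 followed with 21.8%, 21.1% and 20.6%. Protein_coding rows ran from 12.2% to 19.8%, and on chromosome 19 they had 17.2%. Called loci came in groups on some contigs: on CHR_ALT_CTG19_1_3 (31125965 to 31668570) 8 of 10 tested loci were higher and 0 lower, and on CHR_ALT_CTG12_1_7 6 of 13 were higher and 0 lower. The loci nearest to the apelin genes were not called: locus 1650, 175412 bases from aplnra (-0.43 ± 0.20 SE, edgeR adjusted p = 0.148), locus 1890, 29289 bases from aplnrb (-0.02 ± 0.15 SE, adjusted p = 0.964 by edgeR) and locus 2435, 67734 bases from apln (-0.09 ± 0.15 SE, edgeR adjusted p = 0.769). The last 2 lie on alternate contigs, and their distances take the coordinates listed there as chromosome coordinates, which could not be checked.

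Because most loci are on alternate contigs, many could be set beside the annotated copy of the gene they are described by, a comparison added after the data had been seen. Of 3445 such loci, 3053 had a gene symbol in the description, and 2359 had a gene of that symbol on the same chromosome and strand. Keeping those within 100000 bases, 1 locus a gene and enough counts in both copies left 1591 pairs, with a median of 7268 bases between the midpoints on that same reading of the coordinates. Where several loci matched a gene, the one with the most counts was kept (2290 loci became 2036), which favours the alternate copy in the shares. The symbol came from the best protein match, so a pair may also join a locus with a paralog or a neighbour. The share of a pair's counts on the alternate copy had a median of 51.7%, with quartiles of 27.2% and 75.4%, and in 821 pairs (51.6%) the alternate copy held more than the annotated gene. For pvalb2 it held nearly all, 99.8% or more in each library. How reads that match both copies were counted is not given in the sources used here.

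The share on the alternate copy did not change past the threshold with ML233. The quasi-likelihood test on the ratio of the copies called 0 of 1591 pairs in each of the 4 ML233 contrasts (0% called), with 43, 32, 35 and 54 at an unadjusted p under 0.05. In KO against WT within DMSO 2 pairs were called (0.126%). Averaged over treatments 114 pairs were called (7.17%), 75 with a higher and 39 with a lower share in KO. Of these, 53 differed by 10 percentage points or more, and the largest difference was 27.1 points. The median within-genotype SD of a share was 4.44 points in WT and 5.01 in KO.

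In most of the 114 pairs the 2 copies moved apart. The log2 fold changes of locus and gene had opposite signs in 98 and the same sign in 16, against 638 and 943 among the 1581 pairs tested as single rows. In 16 of the 98, both copies were called. The ratio contrast chose these pairs, so this split is a description. In the other direction, of 245 pairs whose locus was called in KO against WT, the share was called in 56 and not in 189. Both copies of sgk1 rose, the locus by 1.29 and the gene by 1.17 (edgeR adjusted p = 0.0028 for the gene), and the share hardly moved (log2 ratio change 0.16 ± 0.10 SE, edgeR adjusted p = 0.425). The same held for the MOT9 gene slc16a9a (locus 2.02, gene 1.68, ratio 0.07 ± 0.25 SE, adjusted p = 0.921 by edgeR).

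The share separated all 12 KO from all 12 WT libraries for 3 genes (0.189% of pairs). For tmem106bb, which codes for a lysosomal membrane protein, it was 28.2% to 41.4% in WT with a median of 32.5%, and 51.1% to 75% in KO with a median of 59.1%. The log2 ratio of the copies rose by 1.63 ± 0.12 SE (edgeR adjusted p = 1.19e-08), with the locus at 1.15 and the gene at -0.40. For pip4p2, which codes for a phosphoinositide phosphatase, it was 16.2% to 35.4% in WT and 38.5% to 56.8% in KO (1.59 ± 0.17 SE, edgeR adjusted p = 2.33e-06). For rhbdl2, which codes for a membrane protease, it was 32.3% to 56.0% and 58.4% to 77.9% (1.25 ± 0.18 SE, edgeR adjusted p = 0.000202). There the annotated gene fell by 0.97 on the log2 scale and the locus rose by 0.29. These 3 genes were picked by that separation, so the high share in all 12 KO libraries was fixed by the choice and is a description.

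Genes tmem106bb and pip4p2 share the contig CHR_ALT_CTG19_1_3. All 8 pairs of that contig had a higher share in KO, and 7 were called. The others called were acot13, a thioesterase, arl4ab, a small GTPase, scin, an actin-severing protein, necab1, a neuronal calcium-binding protein, and ripor2. For scin the share was 7.32% to 18.8% in WT and 17.3% to 44.5% in KO (1.60 ± 0.21 SE, edgeR adjusted p = 5.5e-05). For arl4ab it was 2.43% to 12.2% and 9.92% to 28.7% (1.66 ± 0.27 SE, edgeR adjusted p = 0.000631). The share of gmnn, an inhibitor of DNA replication licensing, was 11.3% to 21.9% and 12.3% to 35.3% and was not called (0.57 ± 0.21 SE, edgeR adjusted p = 0.111).

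**Figure D4:**
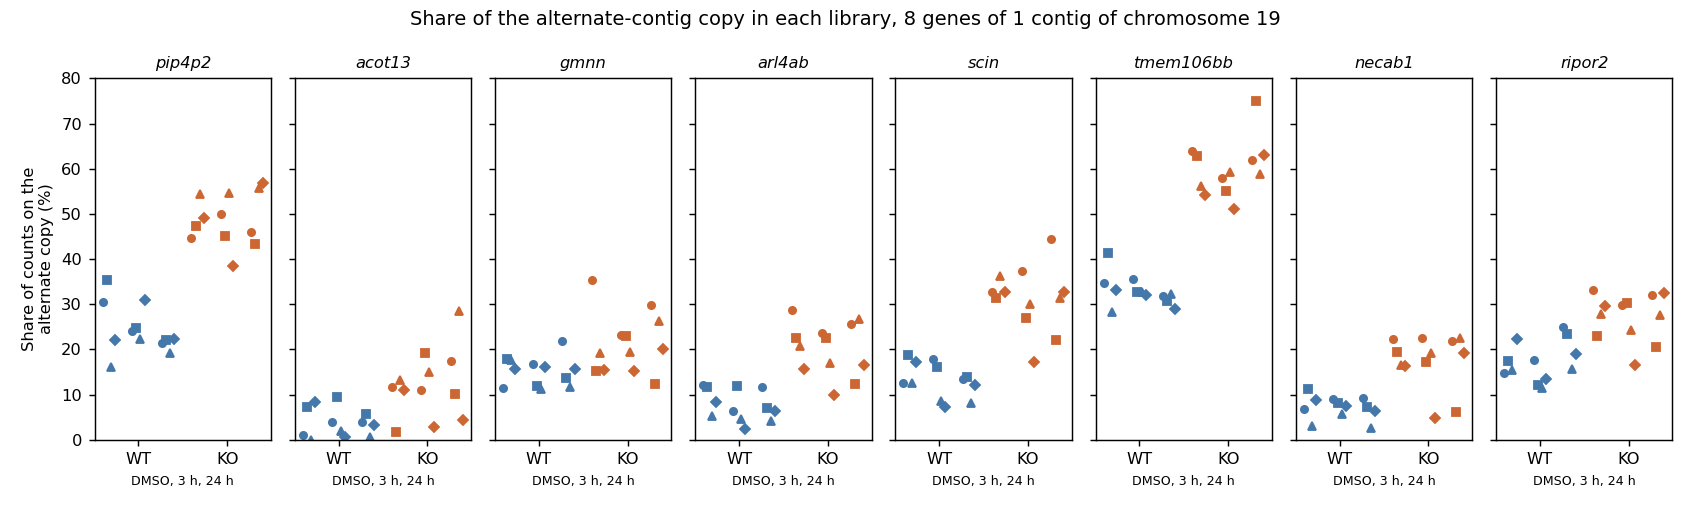
Share of the counts of a gene and its alternate copy that fell on the alternate copy, in percent, for the 8 paired genes of CHR_ALT_CTG19_1_3 in each WT (blue) and KO (orange) library, ordered DMSO, 3 h and 24 h, with replicates 1 to 4 as circle, square, triangle and diamond. For tmem106bb the WT libraries end at 41.4% and the KO libraries start at 51.1%.

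Some of the pairs with a changed share lay together on a contig, and those moved the same way. The 1591 pairs lay on 661 contigs, and 18 contigs had 2 or more called pairs, 51 of the 114 called pairs in all. The rest, more than these 51, were each the only called pair on their contig. How many shared contigs chance would give was not tested. Within each of the 18, the called pairs had the same direction, higher in KO on 14 contigs and lower on 4. Of the 54 other pairs on these contigs, 43 had the sign of the called ones. On CHR_ALT_CTG12_1_7 7 of 12 pairs were called, all higher in KO: fam20cb, neurl2, grid2ipb, rgs9b, atpaf2, pgp and zdhhc4. For pgp, a phosphatase, the share was 25.4% to 59.6% in WT and 50.8% to 66.6% in KO (0.97 ± 0.23 SE, edgeR adjusted p = 0.015). Chromosome 19 had 11 of 18 pairs called (61.1%), chromosome 12 21 of 85, chromosome 16 15 of 61 and chromosome 24 10 of 48.

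**Figure D5:**
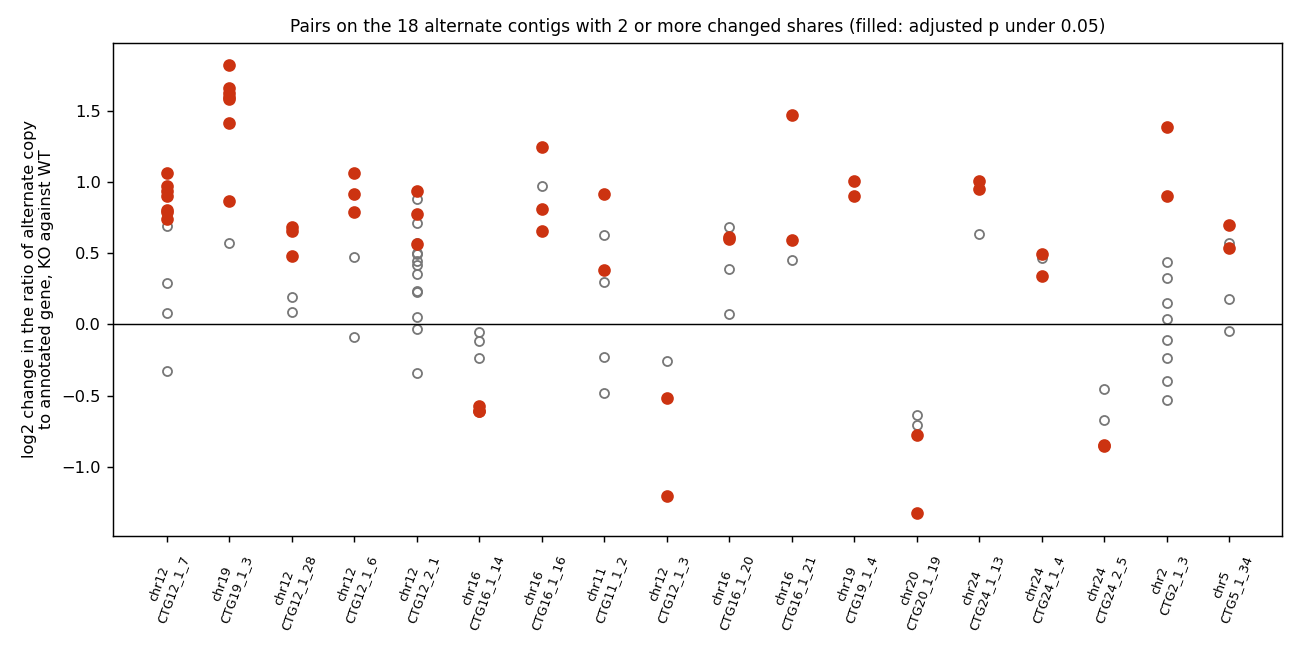
Log2 change, KO against WT averaged over treatments, in the ratio of alternate copy to annotated gene for each pair on the 18 contigs with 2 or more called pairs, filled where the edgeR adjusted p was under 0.05 and open otherwise. On every contig the filled points lie on the same side of 0, above it on 14 and below it on 4.

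Single pairs elsewhere included genes with known roles in the tissues sampled. The share of opn1lw2, a red-sensitive cone opsin, moved from 44.5% to 54.4% in WT to 50.3% to 59.4% in KO (log2 ratio change 0.29 ± 0.07 SE, edgeR adjusted p = 0.0209), a small and overlapping difference. For krt8, a keratin of simple epithelia, it was 69.1% to 75.4% in WT and 41.9% to 71.5% in KO (-0.91 ± 0.23 SE, edgeR adjusted p = 0.0181). For mrap2a, an accessory protein of melanocortin receptors, it was 58.2% to 92.0% and 75% to 100% (1.97 ± 0.45 SE, edgeR adjusted p = 0.0105). Its locus lies on the same contig as locus 2672. For prdx3, a mitochondrial peroxidase, it was 98.6% to 99.8% and 97.0% to 98.7% (-1.43 ± 0.23 SE, edgeR adjusted p = 0.000631), since the annotated copy, with few counts, rose.

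The count of 114 pairs moved with the setting. It was 5 with counts summed over treatments within genotype and number, of which 3 were on CHR_ALT_CTG19_1_3, and it was 64 to 70 without any 1 of 6 single libraries. The KO sums joined libraries whose loci deviated in opposite ways between DMSO and 3 h, by -0.489 and -0.47 for numbers 2 and 3. What lowered the count was not tested. Within groups, the ratios of the copies followed the same pairs of libraries as expression did: over 1148 pairs of copies the SD of the difference in log2 ratio was 0.468 to 0.552 within the WT library pairs and 0.677 to 0.849 between them. These SDs are across genes of the same libraries, which are not independent.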

How the data were processed

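The authors deposited 1 table of raw counts per gene for 24 poly(A) libraries (Trizol RNA, random hexamers, dUTP second strand, paired-end reads, per the labels' protocols). HISAT2 2.0.5, StringTie, featureCounts, R 4.3.2, DESeq2 1.42.1 and the build GRCz11 are named without roles in the submitters' processing notes. The assembly settings, the strand setting and the treatment of reads with several matches are not given in the sources used here, so overlapping and near-identical loci are uncertain.

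Counts were tested in R 4.3.3 with edgeR 4.0.16: filterByExpr (27010 rows kept, 5231 loci among them), TMM, 1 term per group over all 24 libraries, glmQLFTest, two-sided, Benjamini-Hochberg over all rows, called under 0.05. CPM uses TMM-scaled totals, SE belongs to a log2 fold change, and a floor of 3 counts covers counting error only. Pairs of alternate copy and annotated gene were tested with the same model on the 2 counts of each library. Alternatives used limma 3.58.1, DESeq2 1.42.0 and sva 3.50.0. On simulated counts (26732 rows) the averaged KO against WT contrast recovered 80 of 100 rows changed 2-fold and called 5 unchanged rows. Within DMSO it was 54 of 100, with 2 unchanged rows called. Each simulated library was drawn independently, without the pairs of libraries seen here. These figures therefore do not give the rate of false calls in the real data.

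Members, description classes and tests were chosen with earlier results of these data known. Named loci were the 5 highest by CPM and by CPM per kb; up to 5 and 8 per direction, by size of change among called loci without overlap, in KO against WT within DMSO and averaged (there at 1 CPM or more); the smallest p of each ML233 contrast; the 5 largest within-group SDs; those nearest the apelin genes; the 2 longest; and the most abundant of each class. Of the most abundant loci of the classes, only 4848, 1077 and 881 are described here. Loci outside these rules, and all pairs, were named after their values were seen.

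Deviations from the group mean of same-numbered libraries correlated by 0.349 to 0.512 across the WT groups (8 of 8 over 0.1), by -0.489 to 0.624 across the KO groups (6 of 8, the exceptions being numbers 2 and 3 at 3 h) and by -0.585 to 0.467 between KO and WT (8 of 12). As every correlation had to exceed 0.1, the numbers were taken to pair the WT samples only, although KO DMSO and KO 24 h correlated by 0.487 to 0.624 for all 4 numbers. Within the WT groups, however, replicates 1 and 2 also correlated, by 0.254, 0.438 and 0.381 in DMSO, 3 h and 24 h. Replicates 3 and 4 did so by 0.149, 0.308 and 0.112. Correlations of unlike numbers across groups were not computed, so this rule cannot show that the numbers pair samples. The labels call the 4 samples of a group biological replicates.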

Additional observations from a re-analysis of the deposited data

Results flagged for a closer look

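In 3 of 144 groups of 4 libraries tested, 1 library lay far from the others by Dixon's criterion at 95%, and chance flags about 1 in 20, or 7.2. Locus 241 had 0.2359 CPM in WT 3 h replicate 2, against 0.0318 to 0.0655 in the other 3. Locus 3526 had 0 CPM in WT 3 h replicate 1, against 0.0590 to 0.0641. Both loci have only a few counts in WT libraries. Locus 3897 had 13.76 CPM in KO 24 h replicate 2, against 9.22 to 9.44 in the other 3 libraries.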

How the results depend on the processing

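Loci called in KO against WT averaged over treatments (779) numbered 313 with 2 surrogate variables (164 shared with the 779), 496 without KO 24 h replicates 2 and 4 (428 shared), 44 with summed counts, and 710 to 958 under other normalizations, filters, DESeq2 and the replicate block (928); leaving out 1 library gave 576 to 957. In DMSO (7) there were 71 with DESeq2, 0 with only the groups compared, 50 with surrogate variables, 18 without the 2 KO 24 h libraries, and 0 to 12 leaving out 1 library. At 3 h (5) these were 93, 0, 64, 23 and 0 to 20, and at 24 h (28) 174, 0, 90, 0 and 0 to 150. The replicate block gave 6, 7 and 32. The 16 retrotransposon-type calls became 2, 7 and 1 with surrogate variables, without the 2 libraries and with summed counts, and 11 to 18 leaving out 1 library. Pairs with a changed share (114) numbered 106 by limma, 107 with a mean count of 50, 105 with a shorter distance limit, 115 without the 2 libraries, 5 with summed counts, and 64 to 123 leaving out 1 library. The block moved this count to 167, and the DMSO count of 2 to 4, with 0 when only the groups compared were fitted and 1 to 2 leaving out 1 library. On contigs with 2 or more called pairs the direction was shared under each of these settings, but with summed counts only 1 such contig was left. All ML233 and interaction counts stayed at 0 in every setting run, the block included.

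Locus 1890 reversed to 0.22 with surrogate variables and 0.085 without the 2 libraries (-0.11 to 0.044 leaving out 1), and locus 2435 to 0.034 with surrogate variables (-0.15 to 0.036). Loci 469, 510, 3334, 3897 and 4836, named in DMSO, lost the call with only the groups compared (edgeR adjusted p = 0.102 to 0.155). With summed counts, 9 of the loci named in the averaged contrast lost it (edgeR adjusted p = 0.0519 to 0.0928). Causes were not tested. Depth limits loci under 1 CPM most, where the within-group SD was 0.689. The 2 KO 24 h libraries, summed counts, and everything on pairs of copies were added after the data had been seen.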
